A study of Anolis chlorocyanus and Anolis cybotes and Anolis osa with 24 samples.

Results

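Leg muscle of the lizard Anolis chlorocyanus was set against leg muscle of 3 other species of the genus, Anolis cybotes, Anolis osa and Anolis sagrei. The libraries were chosen by their titles: the 3 leg libraries of chlorocyanus (numbers 04, 06 and 08) against the 9 leg libraries of the other species, that is, 12 of the 24 libraries of the series. Each other species gave 3 leg libraries, numbered 01, 03 and 08 in cybotes, 04, 05 and 07 in osa, and 15, 16 and 17 in sagrei. All libraries came from males, and RNA was extracted from whole muscle. The sources used here do not give age, origin or housing of the animals, and no treatment or genetic change is labelled. The remaining 12 libraries, jaw muscle of the same species with the same numbers, served as a second set in which the same difference between species could be looked at. The quantity tested was the mean of chlorocyanus minus the mean of the 3 other species means, on the log2 scale.

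Anoles are small climbing lizards whose legs power running, jumping and clinging, and chlorocyanus is a green anole of the trunk and crown of trees, while cybotes and sagrei live mainly on lower trunks and on the ground. Limb muscle is a mixture of fast and slow fibres, whose myosins, calcium pumps and metabolic enzymes set how quickly and for how long it contracts. It also holds connective tissue, vessels, nerve and blood, so in whole muscle fewer cells of a type and less RNA per cell cannot be told apart. The deposited table lists genes by Ensembl-style identifiers only and pairs them with no symbols. Fibre types, pathways and markers of other cell types were therefore not analysed here, and the genes below are described by level, size of difference and behaviour across libraries.

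Leg libraries of chlorocyanus held 1547055, 1672441 and 1962685 counts, against 1471495 to 1754588 in the 9 others, and detected 11959 to 12558 genes, against 12086 to 12902. Neither measure separated the groups (two-sided exact permutation p = 0.0773 and 0.445, adjusted over 4 library measures to 0.309 and 0.630, smallest p possible 0.00455). The muscle label was checked with genes that differed at least 8-fold between leg and jaw in the other 3 species. Of 71 such genes higher in leg, 68 had the higher mean in leg of chlorocyanus too, and in 48 all 3 leg libraries of chlorocyanus lay above its 3 jaw libraries. Of 26 higher in jaw, 25 had the lower mean in chlorocyanus leg, and in 19 its leg libraries all lay below.

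On the component with the most variance (PC1, 25.5%), the chlorocyanus legs stood apart from the other legs and also from each other. The chlorocyanus libraries lay there at -35.1 (04), -54.5 (06) and -81.1 (08), and the 9 others between -0.37 and 34.0. Between libraries, the root mean square difference of log2 CPM (counts relative to library size, scaled by TMM factors) over all tested genes was 1.13 to 1.49 when chlorocyanus was compared with another species, and 1.01 to 1.24 between 2 of the other species. Only library 08 lay wholly above the latter range, at 1.27 to 1.49. Libraries 04 (1.14 to 1.24) and 06 (1.13 to 1.21) overlapped with it. Within chlorocyanus it was 0.761 for 04 and 06, 0.897 for 06 and 08 and 1.22 for 04 and 08. Within the other species the widest pair differed by 0.882. The pair 04 and 08 of chlorocyanus thus differed by as much as libraries of different species.

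**Figure D1:**
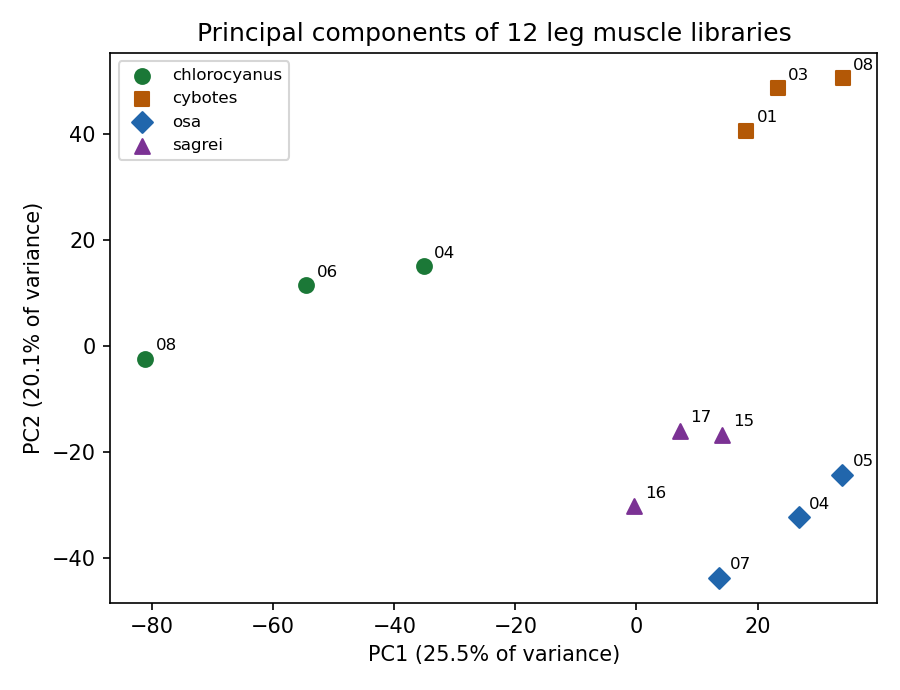
Each point is 1 of 12 leg libraries, placed on PC1 (x axis, 25.5% of variance) and PC2 (y axis, 20.1%) of log2 CPM over 8568 genes, with the title number beside it and the species by colour and shape. The 3 chlorocyanus libraries spread over PC1 from -81.1 to -35.1, all left of the 9 others.

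Library 08 was the farthest of the 3. The 10 most abundant genes took 19.6% of its counts, against 28.4% in 06 and 32.1% in 04, and 24.6% to 31.9% in the other species' legs. Its TMM factor of 1.23 was the highest of the 12. In 83 genes it stood at least 4-fold above both other chlorocyanus legs and in 150 at least 4-fold below both, on log2(CPM + 1). For library 04 these counts were 64 and 65, and for 06 they were 6 and 4. In the 9 legs of the other species they ran from 3 to 89 higher (sagrei 17) and from 9 to 75 lower (cybotes 01). The jaw library numbered 08 was also the highest of the 3 chlorocyanus jaws in 74 of the 83 genes and the lowest in 141 of the 150, where over all tested genes it was highest in 37.6% and lowest in 36.2%. For sagrei 17, its jaw was the highest in 88 of the 89 genes and the lowest in 4 of the 9. What set library 08 apart was not tested, and the main counts of the leg comparison are given with and without it.

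The main comparison asked which genes differed between leg muscle of chlorocyanus and leg muscle of the other anoles. Of 8568 genes tested, 1706 (19.9%) passed an adjusted p of 0.05 and are referred to as called: 1052 (12.3%) were higher in chlorocyanus and 654 (7.63%) lower. On the log2 scale the median difference was 1.34 among the higher genes and -1.54 among the lower, beside 0.0031 over all genes tested. A difference of at least 2-fold was reached by 849 of the higher and 562 of the lower genes, one of at least 4-fold by 189 and 209. At 8-fold or more the lower genes were the more numerous, 84 against 46 higher, and at 32-fold or more 21 were lower and 15 higher. A gene nearly absent in chlorocyanus could pass the low-count filter through legs of any other species. A gene nearly absent in the other species could pass only through the chlorocyanus legs. The filter thus did not treat the directions alike, and whether the excess of lower genes goes beyond this was not tested.

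The test compares 1 species with 3 and measures spread within species only. The number of calls rested on single chlorocyanus libraries. Without 08 there were 1051 calls (695 higher, 356 lower), of which 879 were among the 1706 with the same direction. That fit tested 8999 genes, and of its calls 608 were at least 2-fold higher, 344 at least 2-fold lower, 57 at least 8-fold higher and 76 at least 8-fold lower. Without 06 there were 990 (699 higher, 291 lower), 912 of them shared, and without 04 there were 1852, 1367 of them shared. Of the 1706 genes, 4 changed the sign of their estimate without 08 and none did without 04 or 06.

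**Figure D2:**
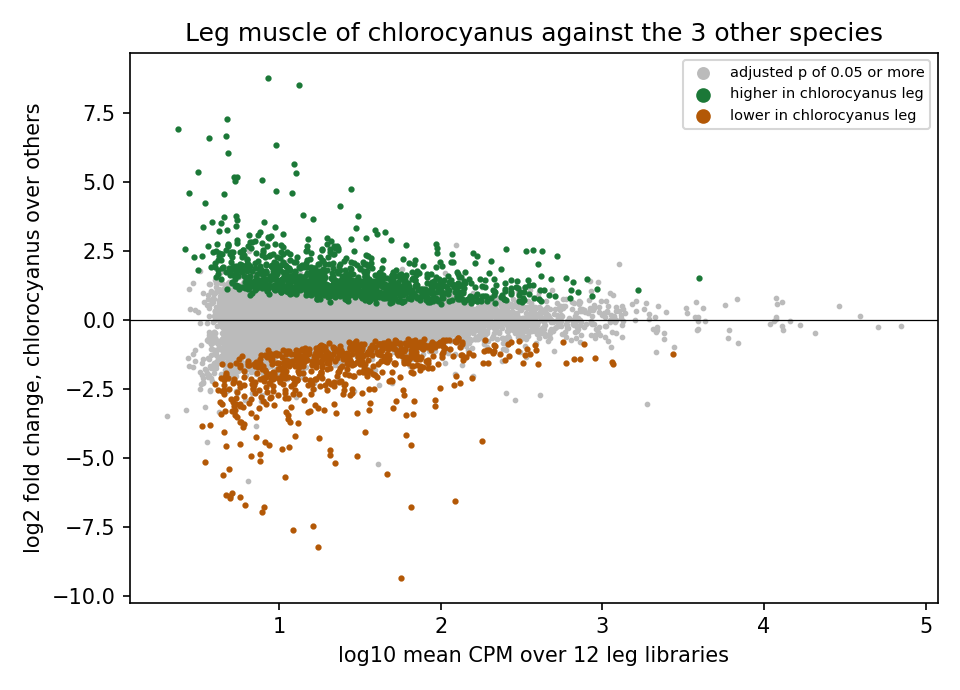
Each point is 1 of 8568 genes, with the log10 of its mean CPM over 12 leg libraries on the x axis and its log2 fold change, chlorocyanus over the mean of the other 3 species, on the y axis. The 1052 higher and 654 lower called genes are coloured, and none of the 20 most abundant genes is among them.

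Differences were found at all levels of abundance, and the shares of genes called in each class were not tested against each other. Among the 2141 genes below 10 CPM on average, 234 rose and 147 fell in chlorocyanus, 17.8% in all. Of 5172 genes from 10 to 100 CPM, 675 were higher and 441 lower (21.6%), and of 1255 genes over 100 CPM, 143 were higher and 66 lower (16.7%). Of the 90 genes over 1000 CPM, 5 were called, 2 higher and 3 lower. Without chlorocyanus 08 the shares called were 8.70%, 13.2% and 11.8% from the lowest class to the highest, and 10 of 93 genes over 1000 CPM were called, 8 higher and 2 lower. CPM is not scaled by gene length, so these classes rank counts and not molecules.

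The most abundant called gene stood at 5337 to 9882 CPM in the 3 chlorocyanus legs, against a lowest, median and highest value of 1465, 2633 and 4412 CPM in the 9 others. The groups did not overlap, and chlorocyanus was higher by 1.53 on the log2 scale (SE 0.27; adjusted p by edgeR 0.00173). The other higher gene of this class averaged 2744 ± 1759 CPM in chlorocyanus (SD, n = 3) and 1294 ± 330 CPM in the others (SD, n = 9), with overlapping ranges, since its lowest chlorocyanus library had 1446 CPM and the highest of the others 1709 CPM. Of the 3 lower genes, one averaged 1345 ± 672 CPM in chlorocyanus and 3219 ± 932 CPM in the others, a difference of -1.23 on the log2 scale (SE 0.35; adjusted p by edgeR 0.0240). The other two averaged 474 ± 118 and 431 ± 223 CPM in chlorocyanus, against 1362 ± 438 and 1419 ± 836 CPM in the other species. In jaw muscle, 4 of these 5 genes were called in the same direction, and the remaining one had a log2 fold change of -0.94 (edgeR adjusted p = 0.211). Of all leg calls tested in both muscles, 64.7% of the higher and 58.4% of the lower genes were called in jaw in the same direction. The 5 genes were not tested against these shares. These 5 genes are described without their identifiers, which no symbol is paired with.

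None of the 20 most abundant genes of leg muscle was called by edgeR's quasi-likelihood test. At an unadjusted p under 0.05 there were 3 of them, DESeq2 called 1 and limma voom 0. Over all 8568 genes, edgeR called 19.9%, and 2996 genes had an unadjusted p under 0.05. DESeq2 called 1942 genes and limma voom 1634. Calls among the 20 genes were not counted again without chlorocyanus 08. The log2 fold changes of the 20 genes lay between -0.82 and 0.79. Together they held 43.1%, 37.4% and 24.1% of the counts in the chlorocyanus legs 04, 06 and 08, and 37.6% ± 3.03 in the others (SD, n = 9).

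The called genes made up a moderate part of each library, and library 08 held the most of the higher ones. The 1052 higher genes took 7.69%, 10.1% and 16.6% of the counts of chlorocyanus legs 04, 06 and 08, and 4.14% to 5.66% (median 4.61%) in the other legs. The 654 lower genes took 1.47%, 1.63% and 1.68% in chlorocyanus and 3.91% to 4.74% (median 4.28%) in the other legs. These shares describe genes picked on the same leg libraries. Jaw libraries did not enter the choice, but their title numbers pair them with the legs, so they are not an independent set. In jaw the higher genes took 7.52%, 8.62% and 14.5% in chlorocyanus 04, 06 and 08, and 4.17% to 5.41% in the other species. The lower genes took 1.41%, 1.54% and 1.67% in chlorocyanus jaws and 3.11% to 3.80% in the other jaws. The groups did not overlap in either muscle, and number 08 had the highest share of the higher genes among chlorocyanus libraries of both muscles.

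**Figure D3:**
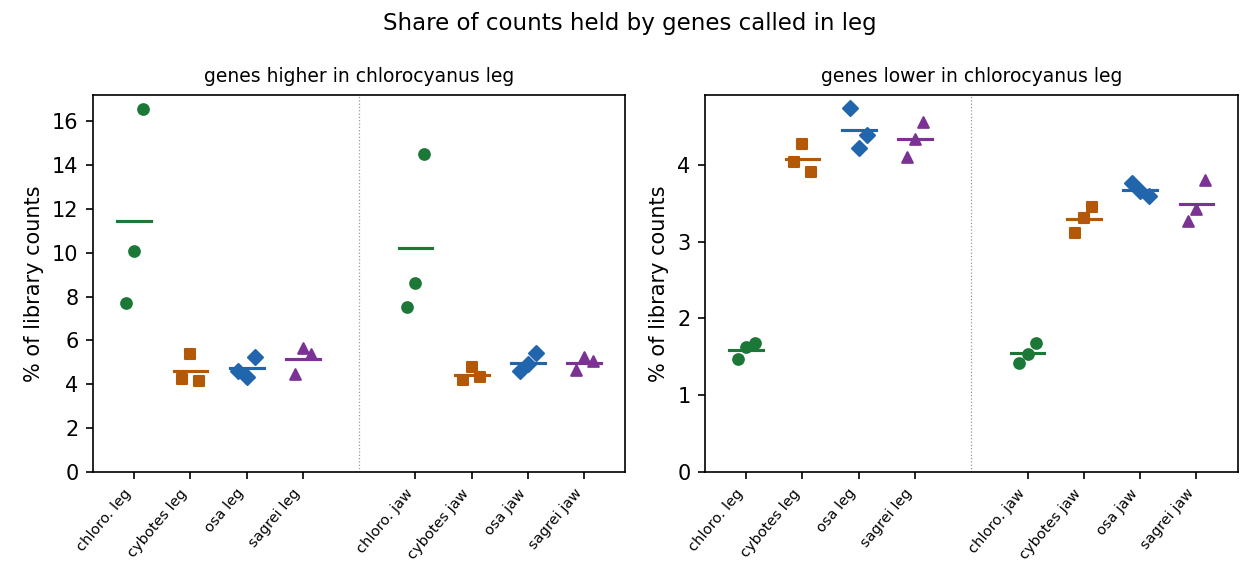
Percent of library counts (y axis) held by the 1052 genes higher and the 654 genes lower in chlorocyanus leg, for 12 leg libraries on the left and 12 jaw libraries on the right of each panel, 1 point per library and a line at the species mean (chloro. is chlorocyanus). The chlorocyanus points lie above all others for the higher genes and below all others for the lower genes, in leg and in jaw.

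The size of the difference also varied among the 3 chlorocyanus legs. For the 1052 higher genes the median log2 ratio of CPM + 1 to the mean of the other species was 0.90 in library 04, 1.11 in 06 and 1.38 in 08. For the 654 lower genes it was -1.38, -1.53 and -1.69. Library 08 was the highest of the 3 in 579 of the higher genes, 06 in 254 and 04 in 219. These genes were picked on the same leg libraries, so the leg medians and this ranking are partly fixed by that choice. In jaw libraries 04, 06 and 08 the medians were 0.72, 0.84 and 1.19 for the leg-higher genes, in the order seen in leg. For the leg-lower genes they were -1.25, -1.24 and -1.48, where 04 and 06 did not follow that order.

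Separation of single libraries was a stricter description. In 482 genes (5.63%) all 3 chlorocyanus legs lay above all 9 others, and 446 of these were called. In 373 genes (4.35%) all 3 lay below, and 326 were called. The remaining 606 higher and 328 lower called genes had at least 1 library inside the range of the other group. With only the chlorocyanus legs 04 and 06, a condition that is easier to meet, 761 of 8999 genes (8.46%) lay above and 633 (7.03%) below the 9 others. By the same count with 3 libraries, cybotes legs lay above the rest in 3.34% of genes and below in 3.42%, osa legs in 4.40% and 3.20%, and sagrei legs in 3.23% and 2.45%. These comparisons reuse the same libraries and the differences between species in these shares were not tested.

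How far chlorocyanus stood from each single species was described for the called genes. Its mean was the highest of the 4 in 1007 of the 1052 higher genes and the lowest in 634 of the 654 lower genes. Over all tested genes it was the highest in 28.4% and the lowest in 28.1%, and the choice of genes by their difference from the other species largely fixes the counts among the called ones. Without chlorocyanus 08 the counts were 667 of 695 and 354 of 356. The difference from the nearest other species cannot, by construction, exceed that from the mean of all 3. For the nearest species the median log2 value was 0.83 for the higher and -1.05 for the lower genes. At least a 2-fold distance from every other species was seen in 384 higher and 346 lower called genes. Among the 8568 tested genes, 18 higher and 110 lower ones kept that distance without being called. The highest mean among the other species was that of cybotes in 375, osa in 298 and sagrei in 379 of the higher genes. The lowest was that of cybotes in 235, osa in 185 and sagrei in 234 of the lower genes. These counts include called genes in which chlorocyanus was not itself the highest or lowest, and were not made over all tested genes.

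Taken 1 species at a time, chlorocyanus legs differed from cybotes legs in 1437 genes (16.8%), from osa legs in 1601 (18.7%) and from sagrei legs in 1343 (15.7%). Higher in chlorocyanus were 796 (9.29%) against cybotes, 854 (9.97%) against osa and 714 (8.33%) against sagrei. Lower in chlorocyanus were 641 (7.48%), 747 (8.72%) and 629 (7.34%), in the same order of species. The median absolute log2 fold change over all tested genes was 0.63 against cybotes, 0.63 against osa and 0.60 against sagrei. These 3 comparisons share the chlorocyanus libraries. With only the 6 libraries of each pair in the fit, the counts were 853, 1034 and 762. Without chlorocyanus 06 they were 849, 1059 and 796, and without 08 they were 992, 1248 and 1116. The count against cybotes was 873 without its leg 03 and 863 without its leg 08, that against osa 918 without 04 and 984 without 05, and that against sagrei 835 without 17. Set against their own remaining species in the same fit, cybotes legs had 1058 called genes (12.3%; 7.10% higher, 5.25% lower), osa legs 971 (11.3%; 6.68% higher, 4.66% lower) and sagrei legs 761 (8.88%; 5.57% higher, 3.31% lower). With 1 of a species' own legs left out, the count was 990 to 1852 for chlorocyanus, 390, 434 or 669 for cybotes, 473, 543 or 550 for osa and 352, 384 or 453 for sagrei. Whether the number of calls differs between species was not tested.

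The 2 genes with the largest increase among those that averaged at least 5 CPM on the higher side, were called and did not overlap between the groups were ENSACAG00000010980 and ENSACAG00000022766. ENSACAG00000010980 had 39.1, 44.1 and 18.6 CPM in chlorocyanus legs 04, 06 and 08, from 48, 72 and 45 counts, and 0 counts in all 9 other legs. Against a floor of 3 counts over the 9 libraries together, its level was at least 148-fold higher in chlorocyanus (edgeR adjusted p = 0.000128). With DESeq2 the adjusted p of this gene was 0.0655. The gene passed the low-count filter through the chlorocyanus legs alone and was picked for its leg difference. Its adjusted p values are therefore not separate support. In jaw it stood at 67.0, 41.0 and 35.3 CPM in chlorocyanus and again at 0 counts in the 9 others, at least 184-fold higher.

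ENSACAG00000022766 had 47.2, 69.8 and 40.9 CPM in chlorocyanus legs. Of the 9 other legs only osa 04 held any, 2 counts or 1.22 CPM. The ratio of pooled counts per scaled library size was 365, with an exact 95% interval of 100 to 3028 (edgeR adjusted p = 3.60e-05). In jaw it had 23.9, 26.9 and 89.5 CPM in chlorocyanus, and 1 count in the 9 others, in cybotes 03. In both muscles all chlorocyanus libraries lay far above every other library. In leg, lack of overlap was required by the rule that picked the gene, and the jaws carry the same title numbers. This gene, too, passed the low-count filter through the chlorocyanus legs alone, so its adjusted p is not separate support. Intervals and floors cover the counting error of pooled counts only and leave out the spread between libraries. PCR copies of a molecule also cannot be told from separate molecules in these counts.

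The 2 genes with the largest decrease, ENSACAG00000002537 and ENSACAG00000003685, had 0 counts in all 3 chlorocyanus legs and all 3 chlorocyanus jaws. Both passed the low-count filter through legs of the other species alone and were picked for their leg difference. Their adjusted p values are therefore not separate support. ENSACAG00000002537 had 187, 153 and 38.6 CPM in cybotes legs, 111, 86.7 and 78.2 CPM in osa legs and 10.2, 14.8 and 6.13 CPM in sagrei legs. Cybotes and osa overlapped and both lay above sagrei, the nearest to chlorocyanus. Over the 9 libraries its level was at least 136-fold lower in chlorocyanus, with the 3-count floor over its 3 libraries (edgeR adjusted p = 0.000153). Its pooled leg counts were 605 in cybotes, 443 in osa and 48 in sagrei, so this bound does not hold against sagrei alone. In jaw it averaged 109 ± 50.5 CPM in cybotes, 102 ± 40.8 in osa and 3.95 ± 2.75 in sagrei (SD, n = 3 each).

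ENSACAG00000003685 was more even among the other species. Its level was 19.6 ± 3.38 CPM in cybotes legs, 28.4 ± 4.65 in osa legs and 21.2 ± 7.21 in sagrei legs (SD, n = 3 each), with a lowest library of 13.4 and a highest of 33.3 CPM. In chlorocyanus legs it was at least 40.6-fold lower (edgeR adjusted p = 4.18e-05). The floor of 3 counts over the 3 chlorocyanus legs together is 0.568 CPM, so a level up to there is not excluded for either gene. In jaw the 9 other libraries averaged 30.2 ± 10.6 CPM (SD, n = 9).

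**Figure D4:**
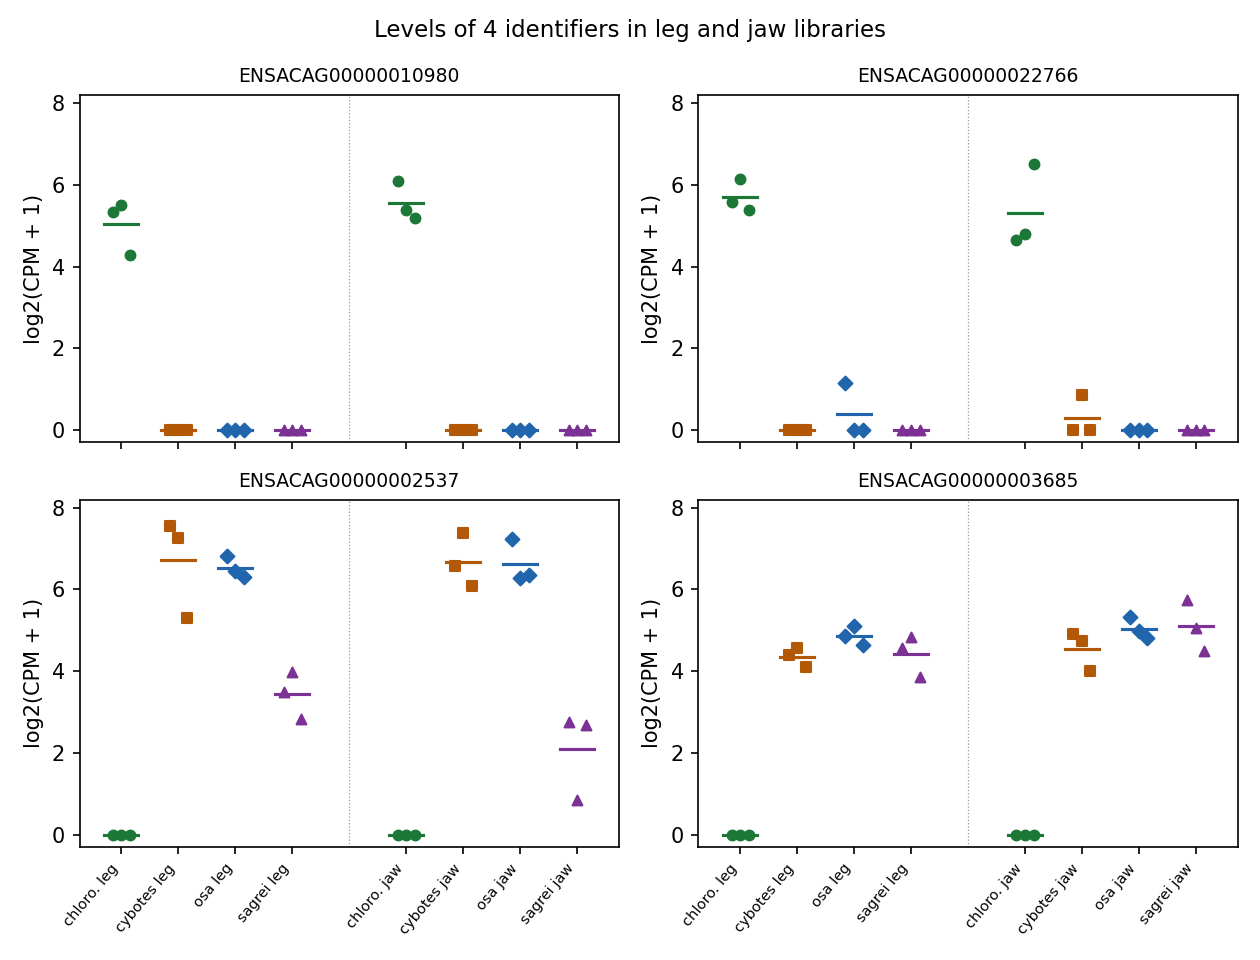
log2(CPM + 1) on the y axis for the 4 identifiers named as the largest differences, 1 point per library and a line at the mean of each species, legs left and jaws right of the dotted line (chloro. is chlorocyanus, and CPM is scaled within each muscle). The upper 2 identifiers are present in the 6 chlorocyanus libraries and at or near 0 elsewhere, and the lower 2 are at 0 in the 6 chlorocyanus libraries.

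Presence against absence was rare. Over all 25920 identifiers, 9 had 0 counts in the 3 chlorocyanus legs and at least 3 counts in each of the 9 others, at a median of 10.8 CPM in the others. The reverse pattern, 0 counts in the 9 other legs and at least 3 in each chlorocyanus leg, held for 7, at a median of 6.23 CPM in chlorocyanus. Of the 9, 6 also had 0 counts in all chlorocyanus jaws, 6 had counts in all other jaws, and 5 met both conditions. Of the 7, 4 had 0 in all jaws of the other species, 6 had counts in all chlorocyanus jaws, and 3 met both. Only 11645 to 12125 of the 25920 identifiers were detected in each chlorocyanus jaw, and the shares of all identifiers with these jaw patterns were not counted. The leg counts of 9 and 7 for chlorocyanus compare with 0 and 4 for cybotes, 3 and 3 for osa, and 3 and 4 for sagrei. Reads of 4 species were counted on 1 set of identifiers, so a sequence difference that alters mapping and a difference in expression cannot be told apart for these or any other genes.

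The same comparison in jaw muscle asked whether the differences of chlorocyanus extended to its other muscle. Of 7805 genes tested in jaw, 1667 (21.4%) were called, 991 higher (12.7%) and 676 lower (8.66%) in chlorocyanus, with 1005 called without jaw 06 and 1075 without jaw 08. Over the 7602 genes tested in both muscles, 636 were higher in both, which is 64.7% of the 983 leg-higher and 66.0% of the 963 jaw-higher genes. Lower in both were 331, which is 58.4% of the 567 leg-lower and 50.4% of the 657 jaw-lower genes. For the genes higher in leg the median log2 fold change was 1.31 in leg and 1.13 in jaw. For those lower in leg it was -1.43 and -1.23, beside a jaw median of 0.030 over all 7602 genes. The genes were chosen by their leg difference, which tends to enlarge the leg medians. Whether the difference was smaller in jaw can therefore not be read from these medians. The estimate in jaw had the same sign as in leg for 966 of the 983 higher and 555 of the 567 lower genes. Over all 7602 genes the jaw estimate was positive in 51.4%. Across the 7602 genes, leg and jaw fold changes had a Spearman rho of 0.785, a description only, since genes are not independent replicates. The muscles share no library, but they share title numbers, which here pair leg and jaw libraries, so the jaws are not an independent set of animals.

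**Figure D5:**
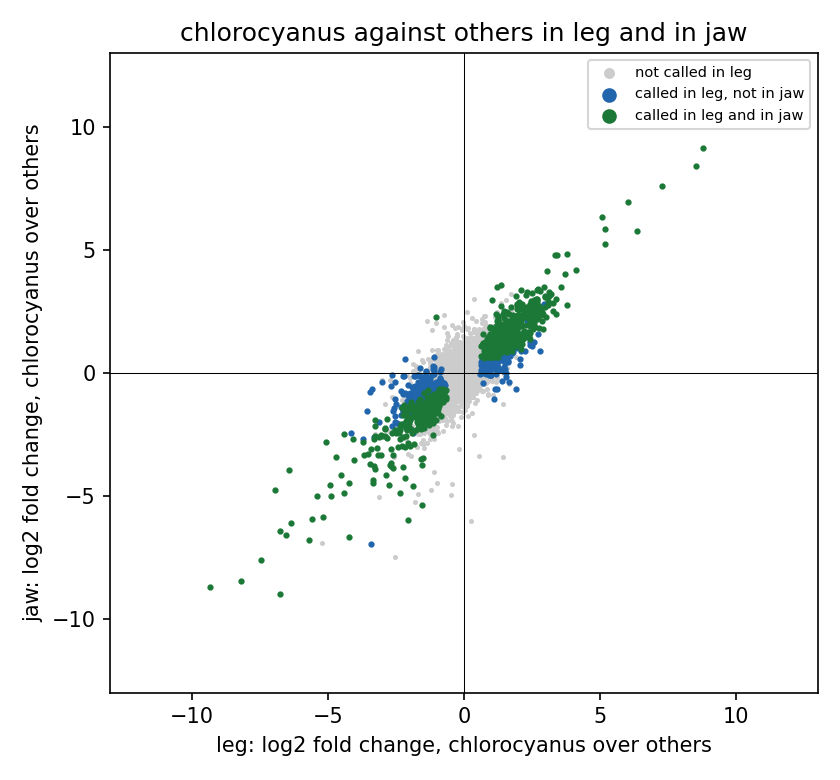
Each point is 1 of 7602 genes, with the log2 fold change of chlorocyanus over the other species in leg (x axis) and in jaw (y axis), coloured by whether the gene was called in leg alone, in leg and jaw, or not in leg. Most called points lie near the diagonal, and 1 gene was called in opposite directions.

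A single gene was called in opposite directions, at -1.01 on the log2 scale in leg (SE 0.31; adjusted p by edgeR 0.0319) and 2.26 in jaw (SE 0.45, adjusted p = 0.00326). With number 08 of chlorocyanus left out of both muscles, 373 genes were higher and 162 lower in both, against 401 and 131 without 06 and 650 and 329 without 04. Without 08, 58.6% of the leg-higher and 49.7% of the leg-lower genes were also called in jaw. Without 06 the shares were 62.4% and 51.8%, and without 04 they were 60.3% and 51.7%.

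Whether the difference of chlorocyanus was of another size in leg than in jaw was tested by the interaction, the leg difference minus the jaw difference, over all 24 libraries. Without a term for the title number, 2 of 9123 genes (0.0219%) were called by edgeR's quasi-likelihood test, 1 with a positive value (0.0110%) and 1 with a negative one (0.0110%). With the title number as a block, which the pairing of the libraries calls for, 121 were (1.33%), 63 with a positive (0.691%) and 58 with a negative value (0.636%), both of the 2 genes included. Of the genes called in leg, 38 of the 1702 tested here passed the blocked interaction, or 2.23%. By the separate fits of leg and jaw, 29 of the 117 blocked interaction genes tested in both were called in leg alone, 43 in jaw alone, 8 in both and 37 in neither. Of all 7602 genes tested in both muscles, 1550 were called in leg. In jaw 963 were higher and 657 lower, and 636 were higher and 331 lower in both. Among the 117, the leg value was the larger in size for 47. The signs were opposite for 80, and in 5 of these both values were at least 2-fold. The 117 were picked by a leg value unlike the jaw value, which itself favours opposite signs. The shares of all genes with these patterns were not counted. The blocked count rested on number 06 of chlorocyanus, without which it was 14, and on 08, without which it was 44, and was 79 without number 05 of osa. The unblocked test called 0 genes without the chlorocyanus leg 04 or 06, where 651 and 429 genes had an unadjusted p under 0.05, and 6 were called without leg 08.

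The 2 genes called without the block, named after their values were seen, passed the test of the species difference in jaw and not in leg. CPM of these 2 genes was scaled over all 24 libraries together, unlike the CPM above, which was scaled within each muscle. Their leg and jaw log2 differences came from the separate fits of each muscle. ENSACAG00000010074 had 417, 368 and 29.4 CPM in chlorocyanus legs 04, 06 and 08, against 331 to 744 CPM in cybotes, 136 to 148 in osa and 60.3 to 132 in sagrei. The legs overlapped, and the leg difference was 0.54 on the log2 scale (SE 0.50, edgeR adjusted p = 0.481). In jaw chlorocyanus averaged 14.2 ± 3.22 CPM, against 551 ± 150 in cybotes, 107 ± 14.4 in osa and 55.0 ± 12.7 in sagrei (SD, n = 3 each), a log2 difference of -3.39 (SE 0.30, edgeR adjusted p = 1.63e-05). Its interaction was 3.93 (SE 0.67, edgeR adjusted p = 0.0299, and 0.000876 with the block).

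ENSACAG00000012034 had 31.3, 33.4 and 50.4 CPM in chlorocyanus legs, against 81.3 to 112 CPM in cybotes, 48.0 to 80.1 in osa and 29.1 to 37.5 in sagrei. Chlorocyanus legs overlapped with those of sagrei and osa, and the leg difference was -0.61 (SE 0.25, edgeR adjusted p = 0.0959). In jaw chlorocyanus had 286, 448 and 271 CPM, against 296 to 335 in cybotes, 90.0 to 137 in osa and 33.1 to 47.1 in sagrei. Chlorocyanus jaws overlapped with cybotes and lay above osa and sagrei, and the jaw difference was 1.61 (SE 0.21, edgeR adjusted p = 0.000154). The interaction was -2.23 (SE 0.32, edgeR adjusted p = 0.00440, and 9.84e-05 with the block).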

How the data were processed

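What the authors deposited is a single table of whole-number counts, 1 row per identifier and not normalized. The submitters' processing notes name STAR without a version; the sources used here give no genome build, annotation, counting program or strand. Groups and numbers came from the titles. The fits used edgeR 4.0.16 (R 4.3.3): filterByExpr over 4 species (8568 genes in leg, 7805 in jaw), TMM scaling, and the quasi-likelihood F-test on group means with Benjamini-Hochberg adjustment. The interaction used all 24 libraries (9123 genes). SE is the size of the log2 fold change over the square root of the F statistic, so it is derived from that test and not fitted. DESeq2 1.42.0 and limma voom 3.58.1 were alternatives. The same code was tested on simulated data. Whether title numbers pair leg and jaw libraries was checked by correlating deviations of log2 CPM from group means: 12 of 12 same-number pairs correlated, at 0.295 to 0.740, so they were taken as paired. The labels do not say that a number is an animal, and p-values measure the spread between these libraries, which may be technical. Replicates differed beyond sampling noise (chi-square per degree of freedom 7.30 to 61.3). Comparison, lists and named-gene rule were chosen with earlier results of these data known. That rule took the 2 largest differences per direction with no overlap between groups and at least 5 CPM; 446 higher and 326 lower genes met it. Lists of symbols could not be matched and were not analysed.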

Additional observations from a re-analysis of the deposited data

Results flagged for a closer look

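Of 9123 genes, 2 had a difference between chlorocyanus and the other species that itself differed between leg and jaw, and 121 did once title number was added as a block, by edgeR's quasi-likelihood test. The interaction of ENSACAG00000010074 was 3.93 on the log2 scale. Its adjusted p by edgeR was 3.36e-06 without the chlorocyanus 08 leg, the library with 29.4 CPM. It lost the call in 16 of 24 fits with 1 library left out, at 0.0803 to 0.178 for 5 of the 6 chlorocyanus libraries and 0.0505 to 0.0557 for 11 libraries of the other species. The interaction of ENSACAG00000012034 was -2.23, and it lost the call in 2 of the 24 fits, with an adjusted p by edgeR of 0.0668 without the chlorocyanus 04 leg and 0.0830 without the chlorocyanus 06 leg. Groups of 3 libraries are too small to test for an outlying library.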

How the results depend on the processing

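The count for chlorocyanus leg (1706) stayed within 1.5 times under 9 of 10 settings and was 691 at an adjusted p of 0.01. With 1 library left out it ran from 990 to 1852. Against cybotes, osa and sagrei it ran from 849 to 1762, 918 to 1762 and 796 to 1433 with 1 library left out, was 853, 1034 and 762 with 6 libraries in the fit, and without a low-count filter 2258 against cybotes and 2065 against sagrei. The jaw count (1667) ran from 1005 to 1850. For cybotes, osa and sagrei legs against the rest, alternatives added after seeing the data, the ranges were 390 to 1371, 473 to 1241 and 352 to 1023, and 1910, 1760 and 1441 without the filter. The unblocked interaction called 12 genes without the filter, 8 by DESeq2 and 1 by limma voom, and 0 to 6 with 1 library left out. It called 0 by edgeR without the chlorocyanus leg 04 or 06, where 651 and 429 genes had an unadjusted p under 0.05. With the replicate block it called 121, and 14 to 165 with a number left out. Log2 fold changes of the 4 named identifiers kept their sign throughout. That was nearly fixed in advance, as each had few or no counts on 1 side of the leg comparison. Only ENSACAG00000010980 lost its call, by DESeq2. The causes were not tested. For leg against leg, no paired analysis was possible because no label pairs libraries of different species. The genes higher in both muscles numbered 636, and 1017 without the filter. A floor of 3 counts over the 3 chlorocyanus legs is 0.568 CPM, which limits what can be seen of low genes.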
